A study of Mus musculus with 12 samples.

Results

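The mice that carry the Q331K change in TDP-43 on 1 or both copies of the gene were treated as a single group, the carriers, and compared with wild type mice over all genes. Of 12 libraries, 8 were taken as carriers because their names hold Q331K: 4 from heterozygotes (Q331K/+) and 4 from homozygotes (Q331K/Q331K). The remaining 4 (+/+) were wild type. All mice had the C57BL/6 background and were 5 months old, and every library held polyA RNA of lower motor neurons cut by laser from lumbar spinal cord. Q331K was a knock-in, so the mutant protein was made from its own gene in all cells that use it, not from an added transgene. Nothing in the labels ties a library to a single animal or to a pool. The p-values therefore measure the spread between these libraries, which may be technical.

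TDP-43, the product of Tardbp, is a nuclear protein that binds UG-rich stretches of RNA. It holds back cryptic exons, steers splicing, keeps long neuronal transcripts intact and limits its own messenger RNA. In amyotrophic lateral sclerosis (ALS) it leaves the nucleus and clumps in motor neurons, the cells that drive muscle and are lost in the disease, and Q331K lies in its low-complexity C-terminal region, where most disease changes fall. Pooling both carrier genotypes asks what a motor neuron with any mutant copy shares, and sets more mutant libraries against wild type than either genotype gives alone.

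The deposited counts cannot tell mutant from reference reads, so the genotypes rest on the labels.

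Total counts per library ran from 60886825 to 83504446. Chat, the enzyme that makes acetylcholine and a defining marker of motor neurons, was at 241, 129, 88.7 and 63.5 CPM (counts scaled to a common library size) in the wild type libraries. In carriers it ran from 87.6 to 353 CPM with a median of 159, and the groups overlapped. Isl1 and Mnx1, transcription factors of motor neurons, were also found in all 12 libraries. RNA of other cells was present too, with Mbp of oligodendrocytes at 412 to 1445 CPM and the astrocyte gene Slc1a2 at 32.3 to 83.6 CPM. A pair of carrier libraries, replicate 1 of each carrier genotype, stood apart. Slc17a6, the glutamate transporter of excitatory neurons, was at 0.563 and 4.52 CPM in them against 160 to 323 CPM elsewhere. In such bulk samples fewer cells of a type and less RNA per cell cannot be told apart. Results that these libraries move are given with and without them.

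Tardbp was at the same level in carriers and wild type within the spread between libraries. Its wild type values were 62.3, 78.7, 76.1 and 77.8 CPM, and the carriers ran from 65.7 to 78.8 CPM with a median of 74.9. The ranges overlapped, and wild type replicate 1 was the lowest of all. Carriers minus wild type came to 0.01 on the log2 scale (SE 0.08, 95% interval -0.16 to 0.18, adjusted p = 0.998 in edgeR), and the exact two-sided permutation p was 0.848. Its sign is not settled, since it was -0.06 without wild type replicate 1 and -0.00 without homozygote replicate 1. Tardbp lies at chr4:148612382-148627019 where Masp2, on the opposite strand, had 7.5% as many counts.

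Of 16338 genes tested over all 12 libraries, 0 (0.0%) passed an adjusted p of 0.05 in edgeR. Without adjustment, 898 genes (5.5%) had p below 0.05, with 461 higher in carriers (2.82%) and 437 lower (2.67%). That count was 1387 in limma-voom and 1487 with no filter on low counts. Limma-voom called 0 (0.0%), and DESeq2 called 13 (0.0796%), of which 7 were higher and 6 lower. The 7 include Adam12 and Slc47a2, which had 0 counts in wild type and could only come out higher. The comparison did bound many differences. The 95% interval lay within 1.5-fold either way for 6840 genes (41.9%), within 2-fold for 10194 (62.4%) and within 4-fold for 13156 (80.5%). The median difference of all genes was 0.00, with 8201 genes above 0 and 8137 below. The values that follow are therefore differences that did not pass in edgeR unless a sentence says which tool called them.

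Spop, which brings substrates to the cullin 3 ubiquitin ligase, had the smallest p among genes lower in carriers. It was at 172, 164, 164 and 157 CPM in wild type, and at 100 to 137 CPM with a median of 119 in carriers. No carrier reached the lowest wild type library. Means were 164 ± 6.22 CPM (SD, n = 4) and 118 ± 12.5 CPM (SD, n = 8), which is -0.47 on the log2 scale (SE 0.08, interval from -0.65 up to -0.29, adjusted p = 0.556 in edgeR and 0.00272 in DESeq2). Spop (ENSMUSG00000057522) lies at chr11:95414080-95493406 on the plus strand and overlaps no other entry of the table. Within the carriers the genotypes also stood apart, with heterozygotes at 123 to 137 CPM and homozygotes at 100 to 115 CPM. Homozygotes were lower by -0.26 on the log2 scale (unadjusted p = 0.0042, which did not pass when adjusted over all genes).

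Letm1, an ion exchanger of the inner mitochondrial membrane, was also lower. It was at 115, 118, 115 and 113 CPM in wild type and at 76.0 to 101 CPM with a median of 88.4 in carriers. The groups did not overlap, and the difference was -0.39 in both genotypes (SE 0.08 for carriers, adjusted p = 0.9 in edgeR and 0.0268 in DESeq2). Letm1 (ENSMUSG00000005299) lies at chr5:33739673-33782817 on the minus strand.

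Tshz2, a zinc finger homeobox transcription factor, was at 29.3, 31.3, 30.9 and 25.5 CPM in wild type and at 13.7 to 24.4 CPM with a median of 18.2 in carriers. Its difference was -0.67 (SE 0.14, adjusted p = 0.9 in edgeR and 0.0268 in DESeq2). Samd4, an RNA-binding repressor of translation related to the fly protein Smaug, was at 17.1, 19.7, 16.6 and 16.4 CPM against 8.71 to 12.7 CPM with a median of 11.9. Neither gene's groups overlapped, and both were further from wild type in heterozygotes (-0.80 and -0.73) than in homozygotes (-0.55 and -0.51). For Samd4 the pooled difference was -0.61 (SE 0.14, adjusted p = 0.9 in edgeR and 0.0496 in DESeq2). 8430419L09Rik, at 198, 214, 241 and 238 CPM in wild type and 167 to 194 CPM in carriers with a median of 180, was the last of the lower genes that DESeq2 called (-0.31, DESeq2 adjusted p = 0.0497).

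Genes with small p-values that no tool called were lower as well. Katnal1, a katanin-like ATPase that severs microtubules, was at 103 ± 4.62 CPM in wild type and 84.3 ± 5.75 CPM in carriers (-0.28), and the groups did not overlap. Sf3a1, a subunit of the U2 particle of the spliceosome, was at 39.6 ± 6.96 and 27.1 ± 3.84 CPM (-0.55), also without overlap. Ndrg4, a neuronal member of the N-myc downstream-regulated family, was at 4316, 4108, 3925 and 4142 CPM against 3280 to 3924 CPM with a median of 3592 (-0.21). The highest carrier of Ndrg4 and its lowest wild type library were nearly equal. Lpar1, a receptor for lysophosphatidic acid, was at 7.81 ± 3.52 and 3.15 ± 1.10 CPM (-1.31), and its groups overlapped. Slc39a9, a zinc transporter, differed by -0.57, but Erh lies over it with 212% as many counts, and without strand information its reads cannot be told from those of Erh.

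The gene with the smallest p of all, 2900097C17Rik, was higher in carriers. GENCODE lists it as a long intergenic noncoding RNA (ENSMUSG00000102869, chr2:156392491-156392829 on the minus strand). It was at 2.54, 5.26, 2.72 and 2.01 CPM in wild type and at 7.52 to 11.6 CPM with a median of 9.04 in carriers, with no overlap. On the log2 scale this is 1.57 (SE 0.27, interval from 0.99 up to 2.16, adjusted p = 0.556 in edgeR and 0.000107 in DESeq2), and was 1.58 in heterozygotes and 1.56 in homozygotes. Without wild type replicate 2, the highest of its group, this gene passed in edgeR (adjusted p = 0.0423). It did not pass without any other single library. The edgeR adjusted p was 0.492 without wild type replicate 1, 0.999 without replicate 3 and 0.9995 without replicate 4.

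Aox1, an aldehyde oxidase, was at 5.77, 5.73, 5.76 and 7.04 CPM in wild type and at 9.12 to 29.2 CPM with a median of 16.3 in carriers. The carriers spread over a far wider range than wild type but stayed above it, and the highest values were those of heterozygote replicate 1 (25.7 CPM) and homozygote replicate 1 (29.2 CPM). The difference was 1.52 (SE 0.31, adjusted p = 0.9 in edgeR and 0.00272 in DESeq2), and 1.21 without both libraries. Aox1 (ENSMUSG00000063558) lies at chr1:58029931-58106413 on the plus strand.

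DESeq2 also called Cuedc1, a protein with a ubiquitin-binding domain, at 8.10, 7.01, 7.59 and 8.27 CPM in wild type and 10.0 to 12.6 CPM in carriers with a median of 11.9 (0.58, DESeq2 adjusted p = 0.017). Rnf150, a RING finger protein, was at 9.38, 10.0, 10.1 and 9.70 CPM against 11.2 to 17 CPM with a median of 15 (0.59, DESeq2 adjusted p = 0.0496). Zfp182, a zinc finger protein, was at 1.26, 1.5, 1.87 and 2.80 CPM against 3.33 to 7.69 CPM with a median of 4.34 (1.34, DESeq2 adjusted p = 0.0496). All 3 were without overlap between the groups. The last calls of DESeq2, Adam12, a metalloproteinase, and Slc47a2, a transporter of organic cations, had 0 counts in all 4 wild type libraries, but the former was at 0 to 2.58 CPM and the latter at 0 to 1.52 CPM in carriers. Each was thus at 0 in at least 1 carrier as well, and a fold is not given. Both passed the filter on low counts through the carriers alone, so they could only be called higher. Adam12 did not pass that filter without replicate 1 of both carrier genotypes. Among genes that no tool called, Dtymk, thymidylate kinase, was at 38.8 ± 3.90 and 50.3 ± 3.85 CPM (0.38), Tmcc3 at 5.84 ± 0.451 and 10.2 ± 2.21 CPM (0.81) and Tmem19 at 44.3 ± 5.56 and 58.8 ± 5.75 CPM (0.41), each without overlap.

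**Figure D1:**
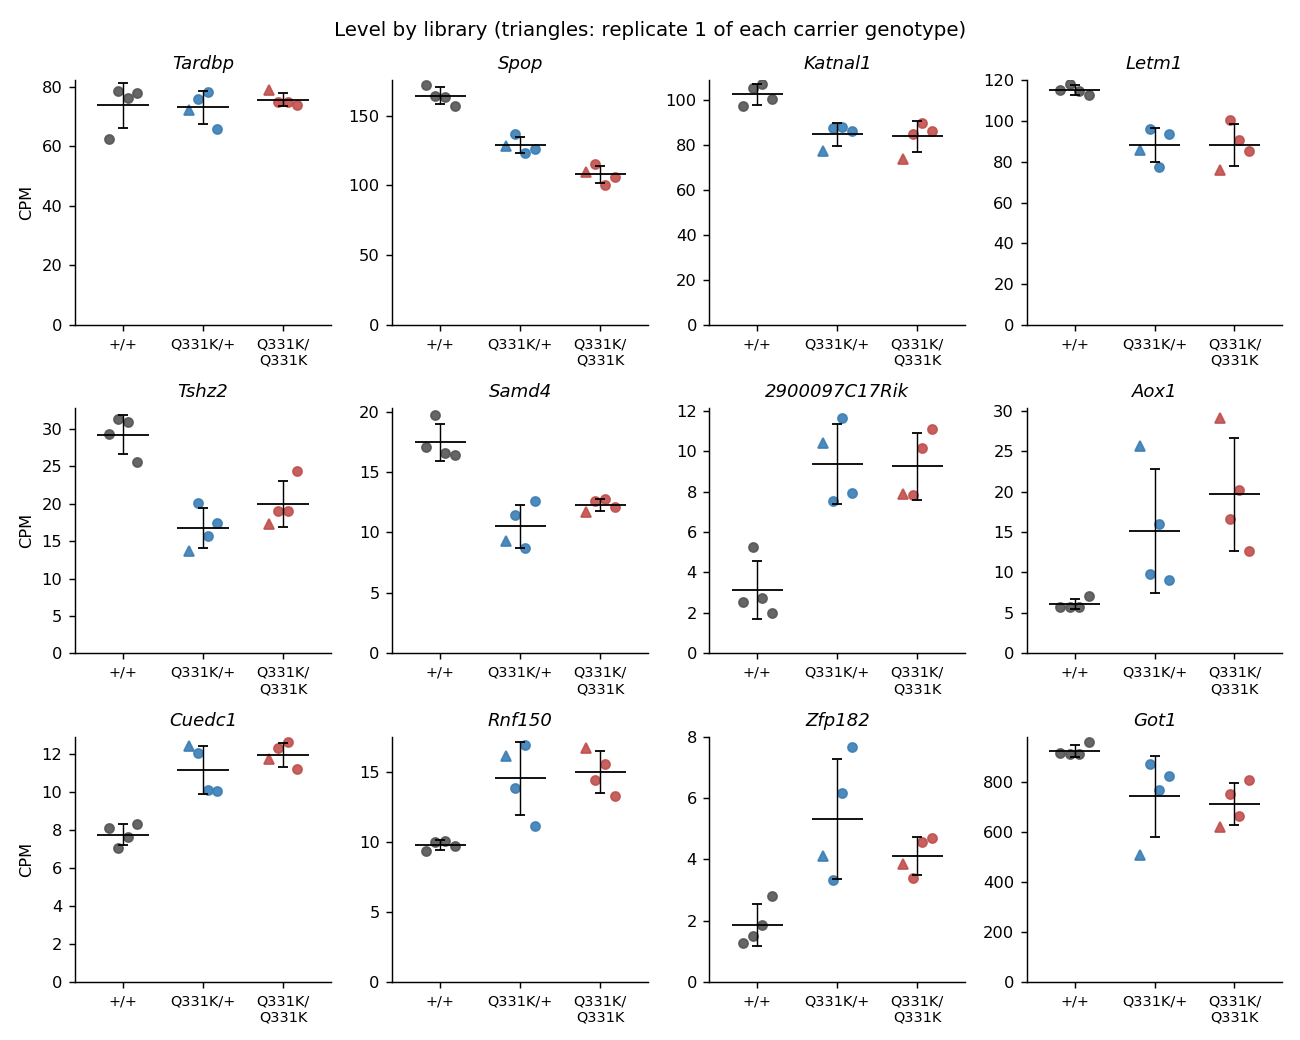
CPM (y axis) of 12 genes in each library, by genotype (x axis), with points for libraries and bars for the mean and SD of 4. Triangles mark replicate 1 of both carrier genotypes. Tardbp is level across the genotypes, while in the other 11 panels no carrier point reaches into the wild type range. Those 11 were picked from genes without overlap, so their separation follows from the choice. Slc39a9 and Lpar1, which were named by p and overlap, are not shown.

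Where both genotypes are pooled, a difference could rest on homozygotes alone. Homozygotes against heterozygotes gave 0 genes (0.0%) past the threshold in edgeR, 486 (2.97%) at an unadjusted p below 0.05, and 3 in DESeq2, namely Gfpt2, Fut4 and Lrrc9. Without heterozygote replicate 1 the count at an unadjusted p was 853. Of the 36 genes named by p or by separation besides Tardbp, Spop had the smallest p between the genotypes. Letm1 and 2900097C17Rik differed between the genotypes by 0.00 and -0.02 on the log2 scale. The heterozygote and homozygote differences share the wild type libraries, so that their likeness is not independent evidence. Their values stand side by side in the plot of named genes.

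**Figure D2:**
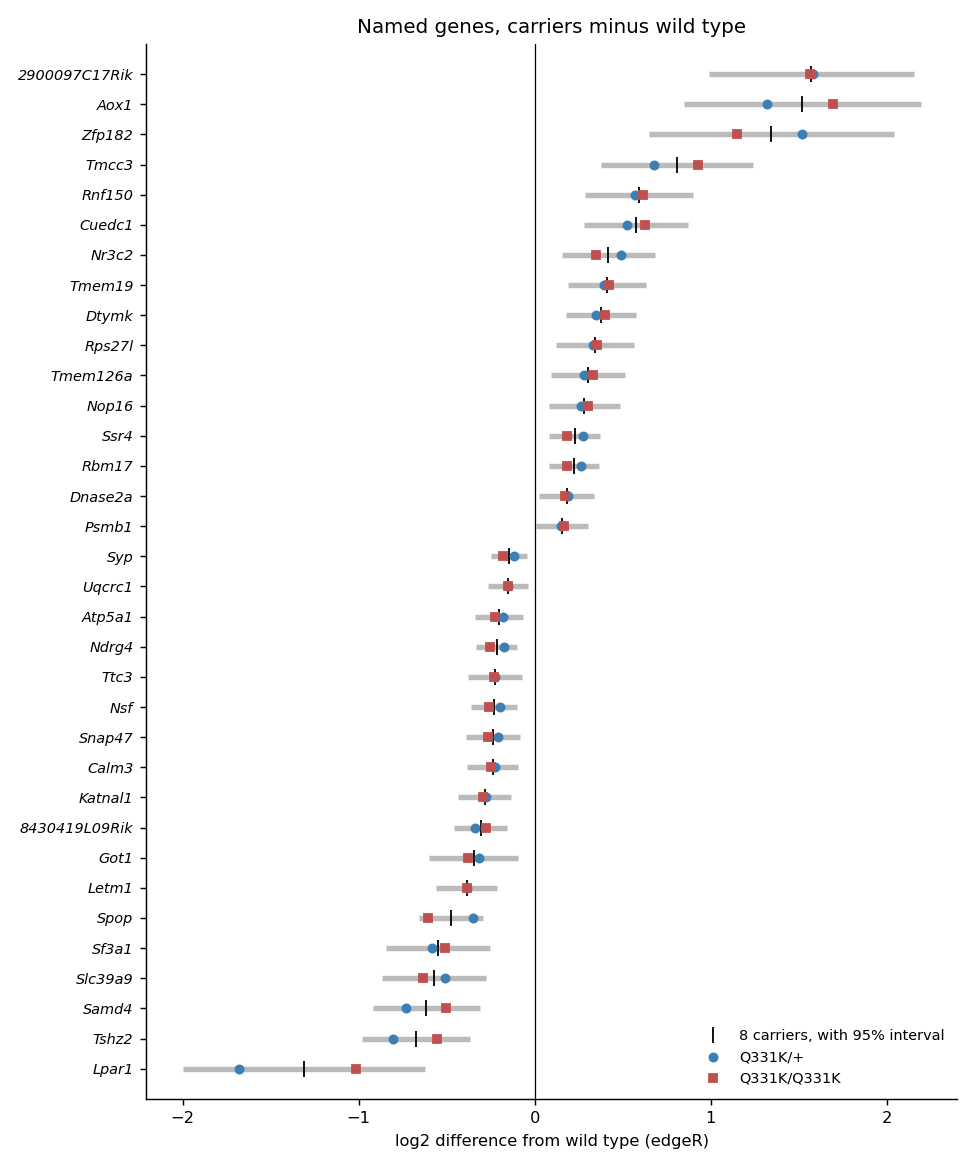
Log2 difference from wild type (x axis, edgeR) for 34 genes (y axis). Black ticks are the 8 carriers with their 95% interval as a grey bar, blue circles heterozygotes and red squares homozygotes. For Spop the squares lie further from 0 than the circles, and for Tshz2, Samd4 and Lpar1 the circles do.

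Separation of the libraries was also counted without a model. All 8 carriers lay above all 4 wild type libraries for 34 genes (0.208%) and below them for 68 (0.416%). Shuffled labels have 495 arrangements, and would separate a gene with a probability of 0.00404 for both directions together. Whether these counts differ from that share was not tested, and separation of a single gene is a description only. The higher genes had a median log2 difference of 0.45 and a median level of 14.5 CPM, and the lower genes -0.39 and 48.0 CPM. Homozygotes lay further from wild type than heterozygotes in 21 of the 34 and 41 of the 68. The same count over all genes was not made, so no trend with allele number is read from these. Leaving out a library can only add genes to such a count. It gave 191 higher and 247 lower genes without wild type replicate 1, 89 and 151 without replicate 2, 87 and 125 without replicate 3, and 77 and 129 without replicate 4. The higher count was 68 without homozygote replicate 2 and 72 without homozygote replicate 4, the lower count 108 without heterozygote replicate 2 and 109 without homozygote replicate 4, and both 88 and 113 without the pair poor in interneuron RNA.

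The lower genes with the most counts included genes of vesicle fusion and release. Nsf, the ATPase that recycles fusion complexes, was at 1346, 1375, 1307 and 1348 CPM in wild type and 1010 to 1254 CPM in carriers with a median of 1130 (-0.23). Syp, the vesicle protein synaptophysin, was at 1332, 1306, 1331 and 1363 CPM against 1122 to 1287 CPM with a median of 1216 (-0.15). The gap between the groups was narrow in both, and Syp shares its place with Gm14703, which had 33.4% as many counts. Snap47, a SNAP family member, differed by -0.24 and Calm3, a calmodulin gene, by -0.24.

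Got1, the cytosolic aspartate aminotransferase, which handles glutamate, was at 913, 909, 910 and 957 CPM in wild type and 508 to 871 CPM in carriers with a median of 759. Its difference was -0.35 (SE 0.12), and -0.24 without the pair poor in interneuron RNA, which held the lowest carriers. Atp5a1, the alpha subunit of ATP synthase, was at 1639, 1669, 1634 and 1696 CPM against 1284 to 1594 CPM with a median of 1455 (-0.20). Uqcrc1, a core subunit of complex III, was at 1045, 986, 1015 and 1032 CPM against 826 to 984 CPM with a median of 913 (-0.15). Ttc3, a ubiquitin ligase that overlaps Pigp (12.5% of its counts), differed by -0.23. None of these passed in edgeR, where the adjusted p of each was 0.9.

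The higher genes with the most counts were of other kinds. Psmb1, a subunit of the proteasome core, was at 446, 462, 463 and 455 CPM in wild type and 463 to 598 CPM in carriers with a median of 496 (0.16, and 0.10 without the pair). Ssr4, a subunit of the translocon-associated complex of the endoplasmic reticulum, differed by 0.23, Rbm17, a splicing factor, by 0.22, Tmem126a, an assembly factor of complex I, by 0.31, Nop16, a nucleolar protein of ribosome assembly, by 0.28, and Rps27l, a ribosomal protein paralog, by 0.34. Nr3c2, the mineralocorticoid receptor, was at 29.3, 27.5, 22.1 and 30.2 CPM against 30.4 to 43.9 CPM with a median of 36.7 (0.42). The lowest carrier of Nr3c2 was barely above the highest wild type library. Dnase2a, the lysosomal DNase, differed by 0.18, but Mast1 lies over it with 226% as many counts, so that its reads cannot be assigned.

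Gene lists were then read by counts and medians, beside the median of 0.00 for all genes and the shares of 2.82% (higher) and 2.67% (lower) of all genes whose p before adjustment was below 0.05. In 41 lists, 791 genes were tested and 0 passed in edgeR. Members of a list share their libraries and are not replicates.

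Most genes of the citric acid cycle and of glycolysis lay below 0, though none passed in edgeR, while those of the respiratory chain did not lean. Of 16 citric acid cycle genes, 15 were below 0, with a median of -0.11, and 5 had an unadjusted p below 0.05, all lower. The mean log2 CPM of the list was lower in all 8 carriers (8.45 to 8.64) than in any wild type library (8.64 to 8.71), although the groups all but met. It was the only one of 41 lists whose groups did not overlap. Shuffled labels would separate a single list with a probability of 0.00404, and 41 lists were looked at. The lists were also chosen with earlier results of these data known, so this separation is a description only. Without the pair poor in interneuron RNA all 16 genes were below 0, with a median of -0.12. Ogdh, of the oxoglutarate dehydrogenase complex, was at 338, 288, 318 and 291 CPM in wild type and 209 to 299 CPM in carriers with a median of 257 (-0.30, unadjusted p = 0.00812 in edgeR). Sdha, the catalytic subunit of succinate dehydrogenase, was at 590, 588, 599 and 599 CPM against 429 to 598 CPM with a median of 502 (-0.23). In both, 7 of 8 carriers lay below every wild type library. Idh3a, of the isocitrate dehydrogenase that feeds the chain, differed by -0.28 and Sucla2, a succinyl-CoA ligase subunit, by -0.15.

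Of 16 glycolysis genes, 13 were below 0, with a median of -0.12, and 6 had an unadjusted p below 0.05, all lower. Without the pair all 16 were below 0, with a median of -0.11. Pkm, pyruvate kinase, was at 4393, 3943, 4055 and 4342 CPM in wild type and 3375 to 3953 CPM in carriers with a median of 3746 (-0.17, unadjusted p = 0.00427 in edgeR). Eno1, the enolase of most tissues, was at 1119, 1238, 1349 and 1263 CPM against 462 to 1132 CPM with a median of 940 (-0.49, and -0.30 without the pair), while the neuronal enolase Eno2 differed by -0.12. Pgk1, phosphoglycerate kinase, was at 570 ± 15.3 and 512 ± 41.8 CPM (-0.16). Aldoc, an aldolase counted in this list and among astrocyte markers, differed by -0.42.

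The nuclear-encoded respiratory chain did not lean as a whole. Of 41 subunits, 22 were above 0 and 19 below, with a median of 0.01, yet all 7 with an unadjusted p below 0.05 were lower. Atp5b, the beta subunit of ATP synthase, was at 3188 ± 156 CPM in wild type and 2748 ± 283 CPM in carriers (-0.21), and Ndufa9, of complex I, at 513 ± 26.9 and 457 ± 28.3 CPM (-0.17). The 13 mitochondrially encoded genes had a median of 0.11, which was 0.20 in heterozygotes and -0.30 in homozygotes, and 0.03 without the pair poor in interneuron RNA. Their mean log2 CPM differed by -0.05, with the opposite sign, and none had a p below 0.05.

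Of 40 genes of synaptic vesicles and release, 32 were below 0, with a median of -0.13. At an unadjusted p below 0.05, 6 were lower and 1 higher. In 3, among them Nsf and Syp, all carriers lay below wild type, as they did for 0.416% of all genes. Nsf and Syp were named above by that separation, so it is not a second result. Snap25, a partner of syntaxin in vesicle fusion, was at 7031, 9294, 9058 and 9449 CPM in wild type and 6169 to 8103 CPM in carriers with a median of 7223 (-0.26). Wild type replicate 1 fell inside the carrier range. The exception, Rab3b, a vesicle GTPase, was at 133, 182, 84.6 and 76.0 CPM against 120 to 543 CPM with a median of 181 (1.10), and at 0.43 without the pair, which held the highest values.

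Interneuron markers were lowest in the pair and otherwise overlapped. The mean log2 CPM of the inhibitory list was below every wild type library in 3 of 8 carriers and that of the excitatory list in 4 of 8, and 1 carrier, heterozygote replicate 3, was above all wild type libraries for the latter. Inhibitory markers were below 0 in 10 of 12, with a median of -0.74, and excitatory markers in 7 of 9, with a median of -0.43. The summed level of the inhibitory list ran from 7.63 to 8.92 log2 CPM in wild type and from 2.23 to 8.47 in carriers, and that of the excitatory list from 8.20 to 8.61 and from 6.46 to 8.52. Gad2, which makes GABA, was at 0 in heterozygote replicate 1 and homozygote replicate 1, and Slc6a5, the glycine transporter, at 1.35 CPM and 0. Without these libraries the medians were -0.35 and -0.12, while that of the synaptic list was -0.10, with 35 of 40 below 0. Nsf was then at -0.24 and Syp at -0.13. The part of interneuron RNA within the other libraries was not tested.

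Motor neuron markers leaned the other way. Of 18 tested, 15 were above 0, with a median of 0.41, and 0.06 without the pair. Chat, given above, spread as widely within wild type as between the groups. Esrrg, a nuclear receptor of gamma motor neurons, was lower, at 67.4 ± 10.1 and 53.0 ± 10.1 CPM (-0.35, unadjusted p = 0.0323 in edgeR). The mean log2 CPM of the list was 7.65 ± 0.54 in wild type and 8.05 ± 0.44 in carriers (exact permutation p = 0.202, adjusted p = 0.667 over 10 marker lists). Wild type replicate 1 (8.38) lay above all carriers but the pair.

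The astrocyte, oligodendrocyte and microglia scores differed between the groups by less than the SD within wild type. The astrocyte score was 4.5 ± 0.68 in wild type and 4.21 ± 0.26 in carriers (exact permutation p = 0.335), with 13 of 16 genes below 0 and a median of -0.40. Without wild type replicate 3 the difference of the scores was 0.00 for astrocytes and 0.02 for oligodendrocytes. S100b, a calcium-binding protein counted among them, was higher, at 708, 622, 594 and 601 CPM against 668 to 1010 CPM with a median of 722 (0.30, unadjusted p = 0.0233 in edgeR). The oligodendrocyte score was 5.01 ± 0.61 and 4.86 ± 0.35 (exact permutation p = 0.606), and wild type replicate 3 held the highest Mbp and Mobp of all libraries (1445 and 465 CPM). The microglia score was 0.82 ± 1.12 and 1.18 ± 0.61 (exact permutation p = 0.4). None of 10 marker scores passed, and the smallest adjusted p was 0.667. Schwann cell markers were not among the 10, since a score needed 3 tested markers and only Pmp22 and Cdh19 of 5 passed the filter on low counts. Their mean log2 CPM was 1.35 ± 0.35 in wild type (0.88 to 1.64) and 3.07 ± 1.43 in carriers (1.46 to 5.32), with 6 of 8 carriers above every wild type library, and the difference of 1.72 was 1.15 without the pair. Pmp22, a protein of peripheral myelin, was at 346, 221, 125 and 120 CPM in wild type and 183 to 824 CPM in carriers with a median of 285 (0.97, and 0.36 without the pair). Cdh19, a cadherin of Schwann cells, had counts in 1 wild type library (0.0446 CPM) and was at 0 to 1.90 CPM in carriers. It passed the filter on low counts through the carriers alone, which fixed its direction, so its p is not given. Without the pair only Pmp22 was fitted, while the 1.15 still averages in Cdh19. The mean of these markers, with and without the pair, is thus a description only. The part of Schwann cell RNA in the results was not tested. Total counts, genes detected, and the shares of the 10 most abundant and of the mitochondrially encoded genes did not pass either, the nearest being genes detected (16794.5 ± 187 and 16597.6 ± 207, exact permutation p = 0.129, adjusted p = 0.517 over 4 measures).

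**Figure D3:**
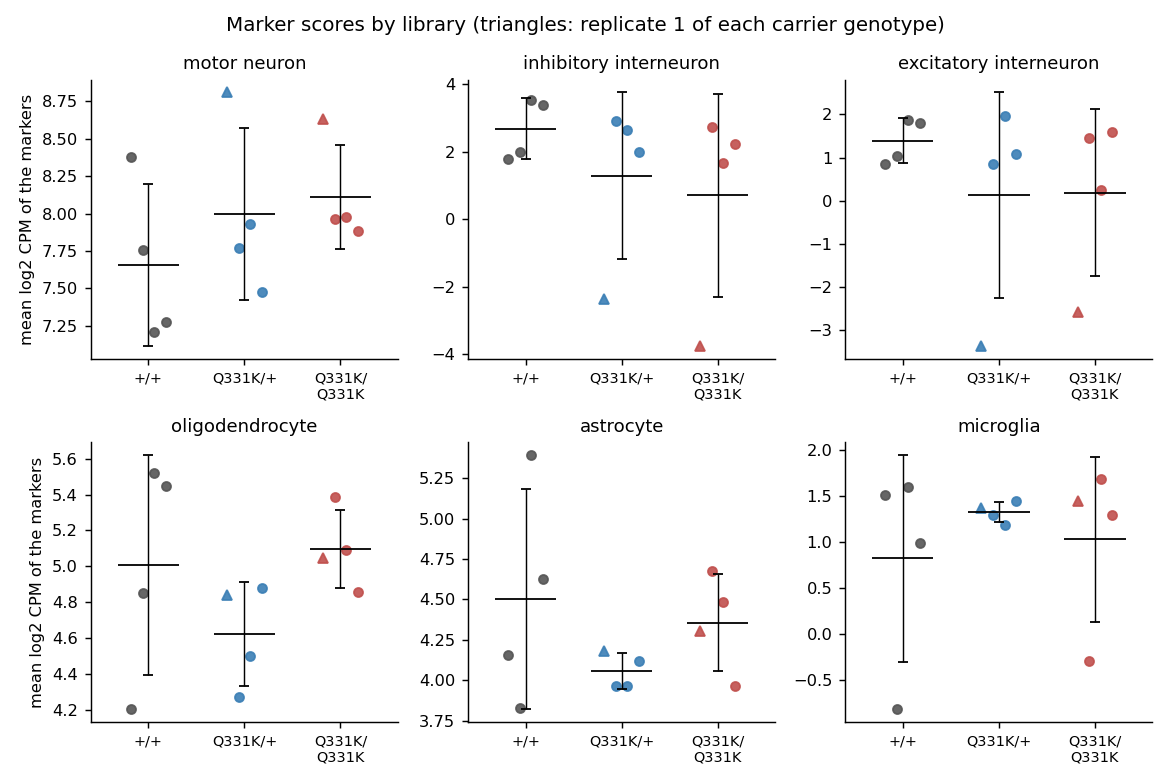
Mean log2 CPM of 6 marker lists (y axis) in each library by genotype (x axis), with the mean and SD of 4 libraries. The triangles, replicate 1 of both carrier genotypes, are the lowest for both interneuron lists (-2.37 and -3.77 for inhibitory, -3.38 and -2.58 for excitatory markers) and the highest for motor neuron markers.

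Lists tied to TDP-43 itself had medians near that of all genes. Of 30 ALS genes, 19 were above 0 and 11 below, with a median of 0.03. Pfn1, an actin-binding protein mutated in ALS, was the one with an unadjusted p below 0.05, at 219, 202, 202 and 191 CPM in wild type and 199 to 336 CPM in carriers with a median of 224 (0.28, and 0.15 without the pair). Of 42 RNA-binding proteins and splicing factors, 26 were below 0, with a median of -0.02. Celf1, a regulator of splicing and decay, was at 29.8, 29.8, 33.3 and 32 CPM against 17.8 to 29.7 CPM with a median of 24.6 (-0.39). Its groups did not overlap, but by a hair. G3bp2, of stress granules, differed by -0.20, and Srsf2, a splicing factor that shares its place with Mfsd11, by 0.17.

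Genes in which loss of TDP-43 lets in cryptic exons in mouse cells numbered 15. Of these, 9 were above 0 and 6 below, with a median of 0.05 (-0.07 without the pair). Their mean log2 CPM differed by -0.04. At an unadjusted p below 0.05, 2 were higher and 2 lower. Sh3bgr was at 136, 155, 148 and 148 CPM in wild type and 146 to 244 CPM in carriers with a median of 204 (0.46, unadjusted p = 0.00163 in edgeR), and 7 of 8 carriers lay above wild type. Adnp2, a homeobox zinc finger protein, was at 16.0, 9.47, 16.9 and 10.5 CPM against 6.27 to 10.7 CPM with a median of 8.11 (-0.66). Mib1, a ubiquitin ligase of Notch signalling, differed by 0.44, and Fam73a, a protein of mitochondrial fusion, by -0.22 without overlap. Gene counts do not show whether a cryptic exon was used. The 15 splicing targets had a median of -0.00, with 7 above 0 and 8 below and none at p below 0.05, and Sort1, the best known of them, differed by -0.11.

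For the 20 listed long neuronal genes whose transcripts TDP-43 binds, 21 entries were tested, since a symbol is repeated in the counts. These entries had a median of 0.04, with 12 above 0. Their mean log2 CPM differed by -0.04, with the opposite sign, and by 0.02 without the pair. The median was 0.16 in heterozygotes and -0.09 in homozygotes. At an unadjusted p below 0.05, 2 were higher, among them Ptprd, a receptor phosphatase of synapses (0.27), and 1 was lower. Over all genes with a mean of at least 5 CPM, the median was 0.03 for 2677 genes spanning under 10 kb, -0.00 for 3444 of 10 to 30 kb, -0.02 for 3073 of 30 to 100 kb, -0.01 for 1221 of 100 to 300 kb and 0.00 for 388 over 300 kb. At an unadjusted p below 0.05 the shortest group had 120 genes higher and 54 lower. The group of 10 to 30 kb had 104 and 133, that of 30 to 100 kb 72 and 128, and that of 100 to 300 kb 41 and 53. The longest genes did not lean, with 15 and 14. Over all 16338 genes, of any level, the shares were 2.82% higher and 2.67% lower. Those over genes with at least 5 CPM were not computed, so no trend with length is read from these counts. Mature transcripts were searched for the run TGTGTGTGTGTG on the sense strand, the DNA form of the repeat that TDP-43 binds. It was found in 1508 of 10358 matched genes (14.6%), whose median was -0.01 against 0.00 for the others. Introns, where most TDP-43 sites lie, were not searched.

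Spop's own pathway was read through adaptors and proposed substrates. Of 28 cullin 3 ligase adaptors, 17 were below 0, with a median of -0.04, and after Spop the smallest p-values were those of Kctd17 (0.21), Klhl9 (-0.24) and Klhl20 (0.28). Of 20 proposed substrates, 11 were above 0, with a median of 0.01. Their mean log2 CPM differed by -0.13, with the opposite sign, and by -0.15 without the pair. It was below every wild type library in 4 carriers and above them in 0, and the lowest member differed by -3.00. Spop acts on proteins, which were not measured.

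Receptors and channels gave few separated genes. Scn2a1, the pore of a sodium channel, was at 19.2, 11.4, 16.6 and 16.6 CPM in wild type and 19.8 to 34.6 CPM in carriers with a median of 24.9, without overlap (0.71, SE 0.18, unadjusted p = 0.00164 in edgeR). It was at 0.50 in heterozygotes and 0.89 in homozygotes, and 0.78 without the pair poor in interneuron RNA. The other 9 sodium channel genes included 7 below 0. Of 23 glutamate receptor genes, 16 were below 0, with a median of -0.15. Gria1, an AMPA receptor subunit, was at 18.2 ± 7.21 and 11.4 ± 3.17 CPM (-0.68). Cacna1g, a T-type calcium channel, was higher, at 8.09 ± 2.02 and 15.5 ± 7.65 CPM (0.94, and 0.54 without the pair).

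Other lists also held no gene that passed in edgeR. Endothelial markers had a median of -0.33 and -0.35 without the pair, with 8 of 10 below 0 both ways. It was -0.77 in heterozygotes and -0.17 in homozygotes. The 4 red blood cell genes were all above 0 with a median of 0.57 and 0.49 without the pair, but at -0.23 in heterozygotes and 1.09 in homozygotes, and their score differed by 0.17 and by -0.05 without the pair. The nerve injury response had a median of -0.10 (-0.13 without the pair), and complement and reactive glia 0.20 (0.13 without it). Of 76 cytosolic ribosomal protein genes, 61 were above 0, but the median was 0.05 and 1 member, Rpl12, had an unadjusted p below 0.05. Lrsam1 lies over Rpl12 with 115% as many counts, so that its reads cannot be assigned. Of 31 proteasome genes, 20 were above 0 (0.05, and 0.00 without the pair). Cholesterol synthesis had 17 of 22 above 0 with a median of 0.13, and 7 of 22 with a median of -0.07 without the pair. Ebp, a sterol isomerase of that path, was at 31.1 ± 4.07 and 38.1 ± 4.88 CPM (0.29), and 0.24 without the pair. Heat shock chaperones had a median of 0.03 and the unfolded protein and integrated stress response 0.01, which were -0.04 and -0.03 without the pair. In the latter none of 26 genes had a p below 0.05, and Hspa5, the main chaperone of the endoplasmic reticulum, differed by -0.11. The small heat shock protein Hspb1 was higher, at 206 ± 114 and 395 ± 202 CPM (0.94, and 0.49 without the pair).

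**Figure D4:**
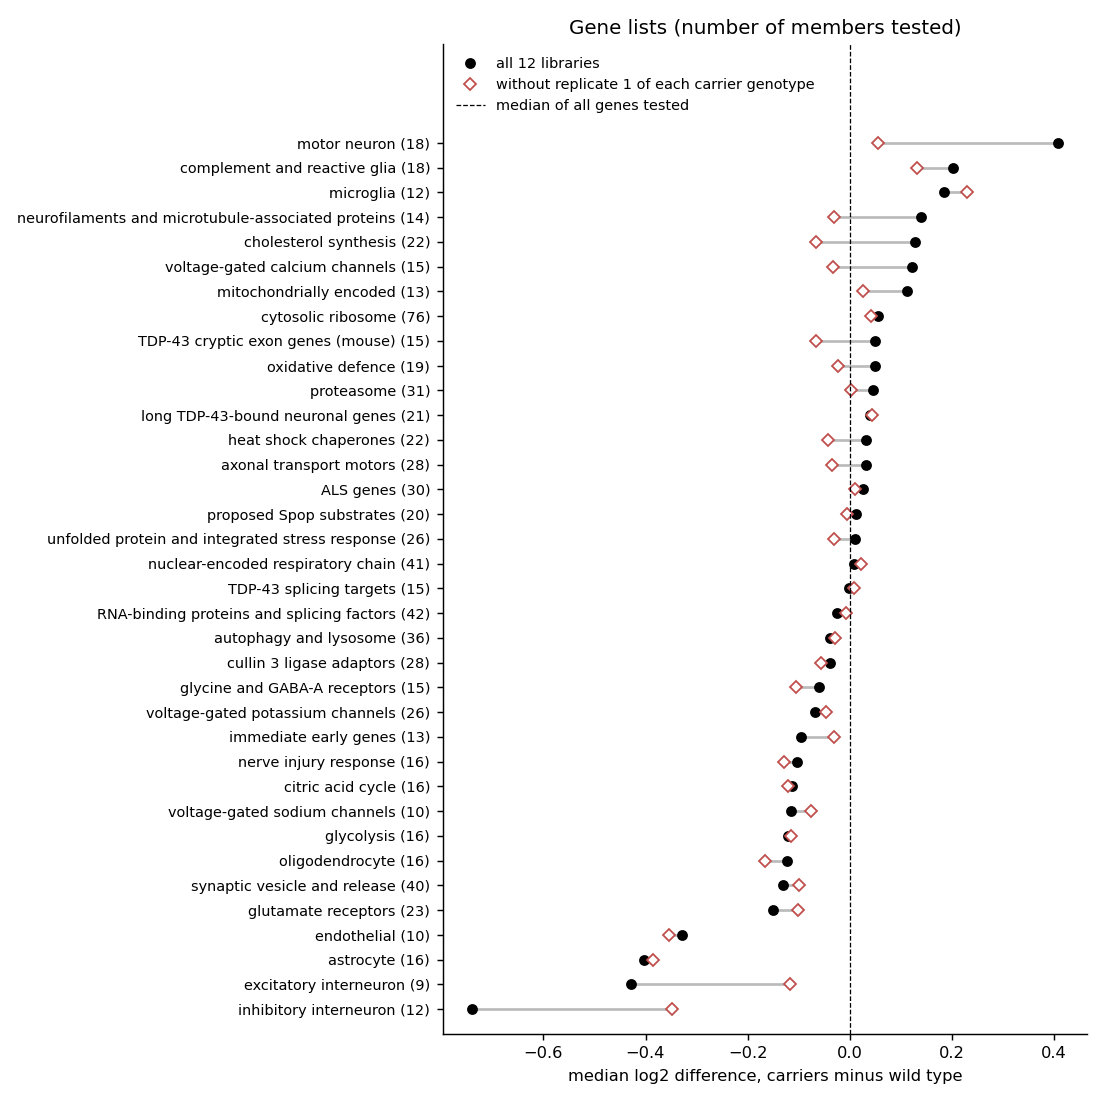
Median log2 difference, carriers minus wild type (x axis), of lists with at least 9 tested members (y axis, number in brackets). Filled points use all 12 libraries and open diamonds leave out replicate 1 of both carrier genotypes. The medians of motor neuron and interneuron markers move toward 0 without these libraries, while those of glycolysis and the citric acid cycle move by 0.01 or less.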

How the data were processed

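Raw counts per gene of 12 libraries were used as deposited. Per the submitters' processing notes, the authors trimmed reads with Trim Galore 0.4.3 and aligned them with HISAT2 2.0.5 to GRCm38. How the counts were made (program, annotation, strand) is not given in the sources used here. Per the labels' protocols, the Arcturus PicoPure, SMART-seq v4 and Nextera XT kits were used, which add no molecular identifiers and keep no strand.

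Of 25965 entries, 16338 passed filterByExpr in edgeR 4.0.16 (R 4.3.3). Counts were scaled by TMM, and edgeR's quasi-likelihood test with Benjamini-Hochberg adjustment compared 8 carriers with 4 wild type libraries. The biological coefficient of variation was 0.566. List scores are means of log2 CPM (prior count 2), compared by exact two-sided permutation of libraries (smallest possible p 0.0040404). DESeq2 1.42.0, limma 3.58.1 (voom), other scalings, filters and covariates and leaving out libraries were tried as alternatives. So was each carrier genotype against wild type, within a fit to all 12 libraries. Libraries of a genotype differed by a chi-square of at least 61.2 per degree of freedom. Fits were tested on simulated data.

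Genes named were Tardbp, those with the smallest p until 20 were named, the 10 non-overlapping genes with the highest mean CPM in each direction, and in each list up to 4 members with the smallest p and 3 defining markers. Calls of DESeq2 outside this rule, Rab3b, Sort1 and Hspa5 were chosen after their values were seen. The members and lists were chosen with earlier results of these data known. Some results are not reported here. Gene spans came from the start and end positions deposited with the counts. Gene identifiers and types came from GENCODE M21, which 15554 of the tested genes matched.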

Additional observations from a re-analysis of the deposited data

Results flagged for a closer look

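In 66 groups of libraries tested for a single outlying library, 4 had one, where chance flags about 1 in 20. Tardbp in wild type replicate 1 was at 62.3 CPM, well below the other wild type libraries. Aox1 in wild type replicate 4 was at 7.04 CPM, above the other wild type libraries. Slc39a9 in heterozygote replicate 4 was at 44.9 CPM, above the other carriers. The microglia score in homozygote replicate 2 was -0.29 (mean log2 CPM), below the other carriers.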

How the results depend on the processing

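For fits, heterozygotes only or homozygotes only means that genotype against wild type within a fit to all 12 libraries. With homozygotes only, 1 gene passed against wild type (Spop), and with DESeq2 13. Leaving out 1 library in turn gave 0 to 1 (2900097C17Rik, without wild type replicate 2). Replicate numbers are shared between genotypes, but nothing says that they mark a batch, and same-numbered libraries correlated from -0.0988 to 0.747, with 7 of 12 libraries closest to their own number. With the replicate number as a block, 4 genes passed (Pip5kl1, Sncg, Hddc2 and Snap25), and 1655 had an unadjusted p below 0.05 against 898 without it. That count was 1387 with limma-voom and 1487 with no filter, and for homozygotes against heterozygotes 876 with limma-voom, 757 with no filter, 265 with the stricter filter and 853 without heterozygote replicate 1, against 486. List members that passed numbered 1 with homozygotes only, 1 with DESeq2 and 1 with the replicate block. Homozygotes against heterozygotes gave 3 in DESeq2. The Tardbp difference was -0.014 with heterozygotes only, -0.021 with limma-voom, -0.016 with genes detected as covariate and -0.055 to 0.049 leaving out 1 library. Genes without overlap numbered 241 higher and 288 lower with heterozygotes only, 210 and 347 with homozygotes only, and 88 and 113 without replicate 1 of both carrier genotypes; leaving out 1 library gave 42 to 191 and 76 to 247, since fewer libraries overlap less. Score differences leaving out 1 library ran from -0.41 to 0.024 for oligodendrocytes, -0.094 to 1.67 for their precursors, -0.52 to 0.00304 for astrocytes, -0.19 to 0.62 for microglia, -1.16 to 0.25 for mural cells and fibroblasts (1.13 with summed CPM) and -0.12 to 0.42 for red blood cells (-0.045 without the pair). Those of total counts ran from -4333930 to 2531510, of the mitochondrial percentage from -0.0538 to 0.104 and of that of the 10 most abundant genes from -0.0392 to 0.303 (-0.287 without the pair). The cause of the other changes was not tested. For the 36 named genes besides Tardbp, 885 values kept their direction and side of the threshold, 13 passed where the reported value did not, and 0 reversed.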
